A study of Mus musculus with 6 samples.

Results

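Lncpint, Malat1, Neat1, H19, Meg3 and Gas5 are long noncoding RNAs, transcripts that are not translated and act as RNA. Their probes were taken from the Agilent arrays by matching the transcript accession printed for each probe to the RefSeq gene table, and every probe was kept apart. This gave values for 5 of 21367 genes with a matched probe, on 8 of 39429 non-control probes: 2 for Lncpint, 3 for Meg3 and 1 each for Malat1, Neat1 and H19. No probe accession matched Gas5, so Gas5 has no value here. The genes were chosen from results of these same arrays, and Lncpint was picked on its log2 difference between the genotypes. The levels of these RNAs and their differences between genotypes are therefore a description, with no test.

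The arrays measured total RNA from frozen livers of C57Bl/6 wild-type mice (WT, 3 arrays) and Itpr2 knockout mice (Itpr2KO, written KO, 3 arrays). Itpr2 encodes an inositol trisphosphate receptor, a calcium channel in the endoplasmic reticulum membrane. All mice were 23 months old and came from an untreated survival cohort on a standard diet in a pathogen-free facility. The series describes 3 independent mice per genotype, and the labels do not say how the allele was made or whether mice were littermates. A level is the log2 of the background-subtracted signal minus that array's 75th percentile, and a difference is KO minus WT on that log2 scale. The level of a probe depends on its own hybridisation, so no probe is ranked against another.

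Lncpint is transcribed from chromosome 6 under the control of p53 and is known to interact with Polycomb repressive complex 2 (PRC2), which places a repressive mark on histone H3. Malat1 and Neat1 are neighbours on chromosome 19 and stay in the nucleus, Malat1 in splicing speckles and Neat1 as the scaffold of paraspeckles. H19 (chromosome 7) and Meg3 (chromosome 12) are imprinted, are expressed from the maternal copy, are abundant in the fetus and fall in most tissues after birth, with skeletal muscle among the tissues that keep H19. Gas5 (chromosome 1) hosts small nucleolar RNAs and can bind the glucocorticoid receptor as a decoy.

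The start regions of these genes are shown first because the calcium and cAMP responsive factor CREB and the E-box factors read the short motifs in capitals. The windows run from 250 bases before to 50 bases after the start in RefSeq (GRCm38.p6), read 5′ to 3′ on the strand of the gene. Lncpint lies at chr6:31218425-31218724 (minus strand), Malat1 at chr19:5802623-5802922 (minus strand) and the first of the Meg3 starts at chr12:109540746-109541045 (plus strand). The capitals mark CACGTG in Lncpint and TGACG, on either strand, in Malat1 and Meg3.
Lncpint: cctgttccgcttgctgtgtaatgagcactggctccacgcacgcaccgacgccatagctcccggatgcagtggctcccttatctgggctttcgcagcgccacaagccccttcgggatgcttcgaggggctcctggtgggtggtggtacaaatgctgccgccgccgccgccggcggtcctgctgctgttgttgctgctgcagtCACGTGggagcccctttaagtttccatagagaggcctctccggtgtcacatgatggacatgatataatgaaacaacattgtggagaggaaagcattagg
Malat1: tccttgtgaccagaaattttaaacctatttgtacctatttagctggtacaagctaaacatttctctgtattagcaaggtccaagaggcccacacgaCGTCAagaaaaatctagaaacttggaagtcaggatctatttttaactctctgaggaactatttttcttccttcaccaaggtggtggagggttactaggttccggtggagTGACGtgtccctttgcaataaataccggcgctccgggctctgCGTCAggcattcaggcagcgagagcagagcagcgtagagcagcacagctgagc
Meg3: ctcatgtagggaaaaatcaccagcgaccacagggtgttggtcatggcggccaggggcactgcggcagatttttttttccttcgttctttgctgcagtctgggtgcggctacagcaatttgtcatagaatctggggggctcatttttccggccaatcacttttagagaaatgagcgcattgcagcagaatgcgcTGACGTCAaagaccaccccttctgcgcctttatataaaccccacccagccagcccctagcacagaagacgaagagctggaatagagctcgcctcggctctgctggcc

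Motifs were searched on both strands, and they were picked after the sequences had been read. TGACGTCA, the full cAMP response element, which contains TGACG on each strand, occurred in the Meg3 window above and in 1 of the 2 Gas5 windows, and in 1.79% of 32851 start windows of the same length. TGACG, its core, occurred 3 times in the Malat1 window and in 20.8% of all windows. CACGTG, an E-box, occurred once in the Lncpint window, at position -49 from the start, and in 7.15% of all windows. The p53 decamer motif was found in 8.36% of all windows and not in the windows of Lncpint, Malat1, Meg3 or Gas5. These are matches of letters, and binding was not measured.

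H19 also carries a microRNA in its transcript, miR-675. Its mature forms (RefSeq, GRCm38.p6, chromosome 7) are given because the H19 values below are those of their precursor, with the seed (bases 2 to 8) in capitals, and they were not measured on these arrays.
mmu-miR-675-5p: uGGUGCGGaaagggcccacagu
mmu-miR-675-3p: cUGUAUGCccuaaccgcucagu

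Between 57.4% and 59.4% of probes on an array were well above background, and no spot was saturated. All 10 hepatocyte markers were well above background on every array. Their mean level, each marker centred on its mean over the arrays, was -0.21 to -0.061 in WT and -0.047 to 0.28 in KO. For 10 Kupffer cell markers it was -0.32 to 0.86 in WT and -0.58 to -0.12 in KO. The part of cell composition in the genotype differences was not tested. Xist was well above background on all 6 arrays and the Y-linked genes Ddx3y, Eif2s3y, Kdm5d and Uty on 0. Itpr2 had levels of 2.91, 2.94 and 2.96 in WT and 2.41, 2.25 and 2.06 in KO. WT 1 and KO 3 stood apart from the other arrays: all 17 skeletal muscle markers were well above background on each of them, against 7 of 17 on each of the other arrays. Values are therefore also given without these arrays. WT 1, WT 2 and KO 1 shared slide 1, and WT 3, KO 2 and KO 3 shared slide 2, as the array identifiers in the headers show.

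Lncpint was higher in the knockout livers on both of its probes. The brighter probe, assigned to transcript NR_110469, had levels of -1.39, -1.80 and -1.61 on WT 1, WT 2 and WT 3 and of -0.58, -0.61 and -0.64 on KO 1, KO 2 and KO 3. All KO arrays lay above all WT arrays, and the KO arrays were closer together than the WT arrays. The means were -1.60 ± 0.21 (SD, n = 3) in WT and -0.61 ± 0.029 (SD, n = 3) in KO, a log2 difference of 0.99 ± 0.15 (SE), or 1.99-fold. The second probe, assigned to transcript NR_110471, had levels of -3.43, -4.01 and -3.55 in WT and of -3.11, -3.26 and -2.79 in KO. Here too the genotypes did not overlap, although KO 2 lay close to WT 1. The second probe had a log2 difference of 0.61 ± 0.21 (SE), or 1.52-fold.

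The Lncpint difference of the brighter probe was similar on both slides. It was 1.01 within slide 1 and 0.98 within slide 2, and 1.11 without the arrays that held muscle transcripts. For the second probe the values were 0.61, 0.52 and 0.59 in the same order. Among 22311 probes that entered the fit, 98.0% had a smaller difference in either direction than the brighter Lncpint probe and 93.7% a smaller one than the second. The genotypes failed to overlap for 2 of the 6 noncoding RNA probes that entered the fit, both of them Lncpint, or 33.3%, and for 11.9% of all probes (6.17% with KO above WT and 5.76% below). Since Lncpint was named for its difference, nothing is read from that count or from the shares of probes with a smaller difference.

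**Figure D1:**
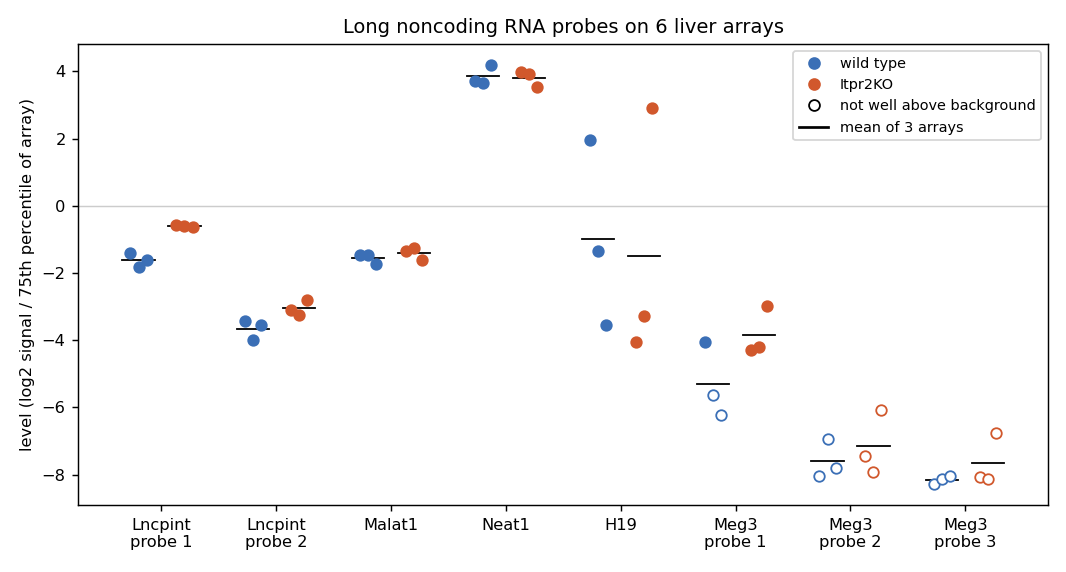
Level of each noncoding RNA probe (log2 signal relative to the 75th percentile of the array) on 3 WT and 3 KO arrays, with a bar at the mean of each genotype and open circles where a probe was not well above background. The genotypes separate for both Lncpint probes, H19 spans from -4.06 to 2.92, and the last Meg3 probes are open on all 6 arrays.

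The coding genes beside Lncpint were not higher in KO. Mkln1, which encodes muskelin and is the next coding gene on one side, had levels of 0.15, 0.43 and 0.0092 in WT and of 0.18, 0.40 and -0.31 in KO. Its genotypes overlapped, with a log2 difference of -0.11 ± 0.22 (SE). Copg2, a coat protein of vesicles and the nearest measured coding gene on the other side, had levels of 0.67, 0.48 and 0.43 in WT and of 0.30, 0.31 and -0.59 in KO, all KO arrays lower, with a log2 difference of -0.52 ± 0.27 (SE). Neither passed the threshold (limma adjusted p of 0.941 for Mkln1 and 0.811 for Copg2). Itpr2 is on the same chromosome as Lncpint, with 962 coding genes between them in the RefSeq order.

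The probes whose pattern over the 6 arrays was most like that of Lncpint belonged to Inpp4a, a phosphatase of phosphoinositides, Sorbs3, the adaptor vinexin, and Lrrc8b, a subunit of volume-regulated anion channels. Likeness was the root mean square difference between levels centred on each probe's own mean, over 17022 probes, and was 0.16 for Inpp4a, 0.17 for Sorbs3 and 0.17 for Lrrc8b. Inpp4a had levels of -4.03, -4.26 and -4.13 in WT and of -3.47, -3.40 and -3.48 in KO. A likeness to Lncpint takes in the genotype difference by construction, and the log2 differences were 0.69 ± 0.12 (SE) for Inpp4a, 0.84 ± 0.20 for Sorbs3 and 0.68 ± 0.17 for Lrrc8b.

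Malat1 showed little spread over the arrays. Its levels were -1.46, -1.45 and -1.72 in WT and -1.35, -1.26 and -1.62 in KO, with WT 3 and KO 3 the lowest of their genotypes. The genotypes overlapped and the log2 difference was 0.13 ± 0.15 (SE). It was 0.045 without WT 3, 0.058 without KO 2 and 0.24 without KO 3. The whole range over 6 arrays was 0.45, and 27.1% of the probes in the fit had a smaller SD over the arrays. The nearest patterns were those of Mrtfb, a coactivator of serum response factor, Tlk2, a chromatin-linked kinase, and Zmym4, at a likeness of 0.020, 0.036 and 0.039.

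Neat1, with a wider spread than Malat1, was highest on WT 3 and lowest on KO 3. Its levels were 3.71, 3.65 and 4.19 in WT and 3.99, 3.92 and 3.53 in KO, so the genotypes overlapped. The log2 difference was -0.042 ± 0.21 (SE). It was 0.31 within slide 1 and -0.47 within slide 2, where WT 3 is the only WT array. It turned to 0.13 without WT 3 and to 0.10 without KO 3. The nearest patterns were those of Acsm1, a mitochondrial acyl-CoA synthetase, Irf2bpl and the signalling adaptor Gab3. Frmd8, a coding gene beside the Malat1 and Neat1 pair, had overlapping genotypes as well, with a log2 difference of 0.093 ± 0.26 (SE).

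**Figure D2:**
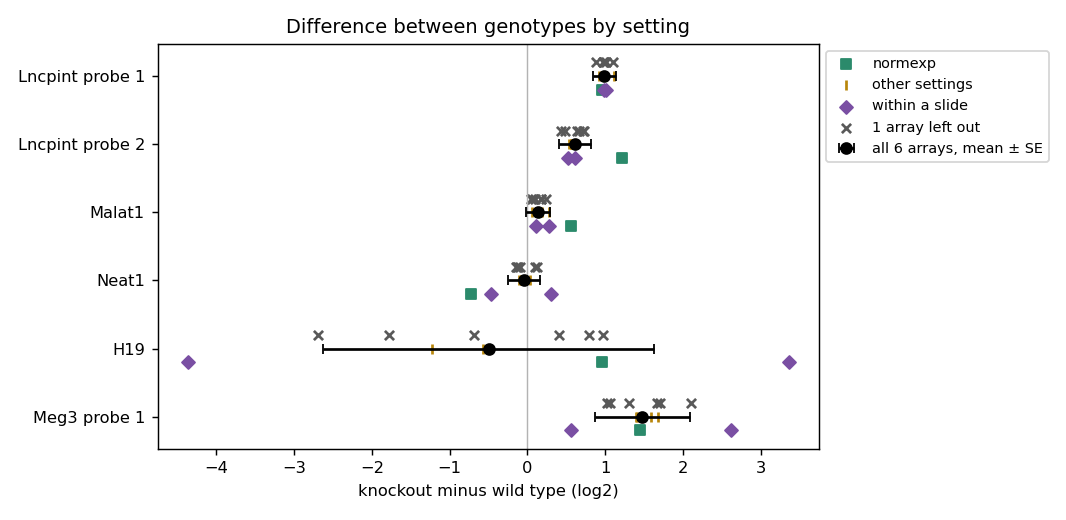
KO minus WT difference (log2) of the 6 noncoding RNA probes that entered the fit, as mean ± SE over all arrays (black), within each slide, with each array left out, with normexp background correction and under the other settings. Both Lncpint probes stay above 0, which leaving out arrays could not change, since all their KO levels lay above all WT levels. H19 runs from -4.37 within slide 1 to 3.36 within slide 2.

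H19 varied most among these RNAs, and not by genotype. Its levels were 1.96, -1.35 and -3.55 in WT and -4.06, -3.29 and 2.92 in KO. KO 3 and WT 1 were the highest, WT 2 came next, and KO 2, WT 3 and KO 1 lay within 0.77 of each other. From lowest to highest the signal differed 126-fold, and 99.9% of the probes in the fit had a smaller SD over the arrays. The means, -0.98 ± 2.77 (SD, n = 3) in WT and -1.48 ± 3.83 (SD, n = 3) in KO, were apart by far less than the spread within either genotype, with a log2 difference of -0.50 ± 2.13 (SE). The difference changed direction between settings, from -4.37 within slide 1 to 3.36 within slide 2, and it was -1.23 without WT 1 and KO 3. Leaving out KO 3 gave -2.70 and leaving out WT 1 gave 0.97.

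The arrays high in H19 were those with skeletal muscle transcripts. For 16 of the 17 muscle markers, WT 1 and KO 3 lay above the other arrays, the exception being the Mylpf probe. The summed signal of the muscle list, relative to the 75th percentile of the array, was 142 on WT 1 and 156 on KO 3. On the other arrays it ran from 1.04 to 1.17 in WT and from 1.01 to 1.30 in KO. Acta1, skeletal actin, had levels of 3.77 on WT 1 and 3.91 on KO 3 and of -5.55 to -5.07 elsewhere, and Ckm, muscle creatine kinase, was well above background on those arrays and on 0 of the others. Their part in the H19 values was not tested. H19 on WT 2, at -1.35, was above the remaining arrays, and the summed muscle signal of WT 2 was 1.04. In bulk tissue a different share of cells and a different amount of RNA per cell cannot be told apart.

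The genes most like H19 were also highest on WT 1 and KO 3, which a likeness to H19 takes in by construction. The nearest probes were those of Tpm1, a tropomyosin, Ak1, adenylate kinase, and Slc2a4, the insulin-regulated glucose transporter, at a likeness of 0.74, 0.88 and 0.94. Tpm1 had levels of 2.71, -2.70 and -3.08 in WT and of -3.43, -2.56 and 3.11 in KO. Fetal liver and liver tumour genes, among which H19 is often counted, had a summed signal of 19.2 on KO 3, 6.61 on WT 2 and 1.93 to 3.74 on the other arrays. The fetal protein gene Afp had a level of -1.14 on KO 3 and of -4.32 to -3.74 elsewhere, and Igf2, the growth factor gene that shares enhancers with H19, was well above background on KO 3 alone. Igf2 did not enter the fit, and the nearest coding genes that did, on either side, spread far less than H19. Mrpl23, a mitochondrial ribosomal protein, had levels of 3.60 to 4.22 over all arrays, and Ins2 levels of -4.62 to -4.14. On the side of Ins2, 1 nearer coding gene did not enter the fit and was passed over, so this comparison does not cover it.

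**Figure D3:**
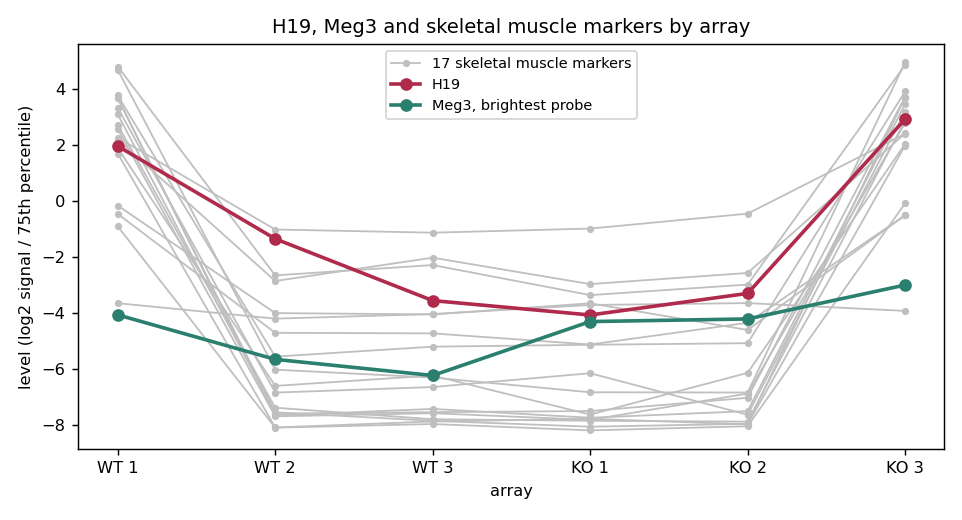
Level (log2 signal relative to the 75th percentile of the array) of H19, the brightest Meg3 probe and 17 skeletal muscle markers on each array, with lines joining the values of a gene. H19 and 16 muscle markers are highest on WT 1 and KO 3, and Meg3 is highest on KO 3 at -2.99.

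Meg3 was near the limit of detection. Its brightest probe had levels of -4.06, -5.64 and -6.22 in WT and of -4.30, -4.20 and -2.99 in KO, and it was well above background on 1 of 3 WT and on 3 of 3 KO arrays. The genotypes overlapped, since WT 1 lay above KO 1 and KO 2. The log2 difference of the signals as measured was 1.48 ± 0.61 (SE), 0.55 within slide 1 and 2.62 within slide 2, and the WT mean rests on 2 arrays near background. Without WT 1 and KO 3 it was 1.68. This probe passed the filter only through the KO arrays. The other Meg3 probes were well above background on 0 of 6 arrays and give no level.

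The Meg3 order over the arrays differed from that of H19 in that KO 1 and KO 2 lay near WT 1. Summed fat markers, which also differed between arrays, were 15.0 on KO 3, 1.63 to 2.19 on WT 1, WT 2 and KO 2, and 0.27 and 0.14 on WT 3 and KO 1. Stellate cell markers ran from 104 to 113 in WT and from 103 to 114 in KO, and endothelial markers from 46.5 to 53.8 and from 41.5 to 67.0. The part of other cell types in the Meg3 values was not tested. The nearest patterns were those of Ppp1r3g, which targets a phosphatase to glycogen, the noncoding RNA 4930459C07Rik and the transcription factor Foxq1, at a likeness of 0.40, 0.43 and 0.44. This likeness uses Meg3 values on WT 2 and WT 3 that were not well above background. It also takes in the genotype difference by construction. Dlk1, the imprinted coding gene of the Meg3 domain, was well above background on 3 of 6 arrays and highest on KO 3, at -3.97. Wdr25 and Ppp2r5c, the nearest measured coding genes that entered the fit on either side, had log2 differences of 0.24 ± 0.14 (SE) and -0.18 ± 0.14.

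The pathways in which these RNAs act were then read from the same fit. At the adjusted threshold of 0.05, limma called 1 of 22311 probes (0.00448%), a protein-coding one (0.00576% of protein-coding probes), and no member of any list below passed. The median log2 difference over 13681 genes was 0.0044, and 398 genes were higher and 401 lower at an unadjusted p under 0.05, which 5.99% of all probes reached.

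For p53, which drives Lncpint, 0 of 24 measured target genes passed (limma adjusted p of at least 0.811), and at an unadjusted p under 0.05 there was 1 higher and 1 lower. The median was -0.033, with 10 members above and 14 below 0, and it turned to 0.019 without WT 1. Plk3, a stress kinase, had a log2 difference of 0.58 ± 0.23 (SE). Pmaip1, a killer protein of the BCL2 family, had one of -0.57 ± 0.21 and the nuclease gene Aen one of -0.49 ± 0.22. Among the members with the highest signals, Rps27l, Perp and Ddit4 had differences of -0.036, -0.24 and 0.40.

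For PRC2, to which Lncpint can bind, 0 of 12 subunit genes passed and 0 had an unadjusted p under 0.05 by limma. The median was 0.11, and it was 0.025 without KO 2, 0.058 without WT 1, 0.068 without WT 2 and 0.040 without WT 1 and KO 3. Ezh1, a catalytic subunit, had a log2 difference of 0.15 ± 0.14 (SE) and the histone-binding subunits Rbbp4 and Rbbp7 had -0.049 ± 0.13 and -0.042 ± 0.13. The accessory subunits Phf19, Epop and Mtf2 had differences of -0.44, 0.38 and 0.21.

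For the protein partners of Neat1 and Malat1 no difference was called. Of 15 paraspeckle protein genes and 19 splicing factors of nuclear speckles, 0 passed and 0 had an unadjusted p under 0.05 by limma, with medians of -0.0048 and -0.0053. With 1 array left out these ran from -0.086 to 0.098 and from -0.11 to 0.062. The core paraspeckle proteins Sfpq and Nono had log2 differences of -0.31 ± 0.15 (SE) and 0.084 ± 0.13, and Nudt21, a cleavage factor subunit, and Dazap1 had 0.28 and 0.26. Tardbp had a difference of -0.17. The splicing factors Srsf3, Srsf2 and Srsf1 had -0.44 ± 0.19 (SE), -0.37 ± 0.17 and -0.22 ± 0.15, and Srrm1, Son and Srsf5 had -0.11, 0.066 and 0.11.

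Imprinted genes, the class of H19 and Meg3, had a median of 0.11, with 8 of 12 measured members above 0, against 6956 of 13681 genes. Of the members 0 passed, and 2 were higher and 0 lower at an unadjusted p under 0.05 by limma. Those 2 were Sgce, a sarcoglycan, with a log2 difference of 0.65 ± 0.21 (SE) and the noncoding RNA Kcnq1ot1 with 0.39 ± 0.15. Grb10, an inhibitor of insulin signalling well above background on 2 of 3 WT arrays, had 0.71 ± 0.32. It drops out when all 6 arrays must be above background, where 7 of 11 members were above 0 with a median of 0.085. Slc38a4, an amino acid transporter, had 0.41 ± 0.21, while Gnas and Igf2r had -0.038 and 0.085. The median of this list was 0.37 without KO 2, 0.24 without KO 1 or KO 3, 0.17 without WT 2, 0.066 without WT 3 and 0.038 without WT 1 and KO 3, and 12 to 15 members were measured in these cases.

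In the place of Gas5, the pathways it belongs to were measured. Of 17 targets of the glucocorticoid receptor 12 had a higher mean in KO, against 6956 of 13681 genes, with a median of 0.31. Of these targets 0 passed, and 2 were higher and 0 lower at an unadjusted p under 0.05 by limma. Those were the transcription factors Zbtb16, with a log2 difference of 0.98 ± 0.25 (SE), and Klf9, with 0.57 ± 0.16. The metallothionein genes Mt2 and Mt1 had 1.76 ± 0.75 and 0.87 ± 0.39, and Errfi1 had 0.12 ± 0.25. The genotypes did not overlap, with KO higher, for 3 of the 17 (Zbtb16, Klf9 and Mt1), where all genes gave 888 of 13681. The median was 0.52 within slide 1 and 0.20 within slide 2, and it turned to -0.24 with normexp background correction. It was 0.048, with 9 of 17 members higher, without WT 2, 0.48 without WT 1, 0.52 without KO 2 and 0.20 without KO 3. Of 11 measured snoRNA host genes all had a higher mean in KO, with a median of 0.16, a range of 0.054 to 0.46 and 0 with an unadjusted p under 0.05. The genotypes overlapped for all 11. The count higher was 8 of 11 with arrays centred on their median, 5 within slide 1 and 9 to 11 with 1 array left out. Snhg6, Snhg1 and Snhg7 had differences of 0.25, 0.26 and 0.25, and Snhg3 and Snhg15 had 0.067 and 0.092. Within slide 1 this median was -0.038 and within slide 2 it was 0.34, and it was 0.25 without WT 1 and 0.097 without WT 3. Zbtb37, a gene beside Gas5, had a log2 difference of -0.097 ± 0.24 (SE).

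Most of the other well known long noncoding RNAs that were measured had a higher mean in the knockout. Of 28 listed, 20 were on the array and 15 were measured, of which 13 had a higher mean in KO, against 6956 of 13681 genes. No gene of this list passed the adjusted threshold (smallest limma adjusted p = 0.811), and 6 were higher and 0 lower at an unadjusted p under 0.05. The genotypes did not overlap, with KO higher, for 7 of the 15, where all genes gave 888 of 13681. The list was written with earlier results of these arrays known, and it is described by its counts alone. Its median was 0.35, 0.14 within slide 1, 0.36 within slide 2 and 0.30 without WT 1 and KO 3. Within slide 1, 10 of 15 were higher. With arrays centred on their median, 11 of 15 were higher, 5 of them without overlap, where all genes gave 5197 and 362 of 13681. Without the filter on dim probes 17 of 20 were higher, against 12440 of 21367 genes.

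X-linked noncoding RNAs were among these 7. Xist, which coats the inactive X chromosome, had levels of 0.087, 0.011 and -0.037 in WT and of 0.37, 0.64 and 0.21 in KO, a log2 difference of 0.39 ± 0.15 (SE). Ftx, a noncoding neighbour that activates Xist, had levels of -4.52, -4.56 and -4.50 in WT and of -4.15, -4.23 and -4.09 in KO, a difference of 0.37 ± 0.12. Firre, an X-linked RNA that organises nuclear position, had levels of -2.61, -2.83 and -2.71 in WT and of -2.38, -2.17 and -2.38 in KO, a difference of 0.41 ± 0.13. Jpx, another activator of Xist, was well above background on 2 of 3 KO arrays and had a difference of -0.23 ± 0.27. The other members without overlap were Kcnq1ot1, Peg13 (0.36 ± 0.14), Mir17hg (0.35 ± 0.14) and Rmrp (0.38 ± 0.18), the RNA of an RNA-processing enzyme. Dleu2, Airn, Tug1 and Pvt1 overlapped between genotypes, with differences of 0.37, 0.077, 0.041 and -0.21.

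**Figure D4:**
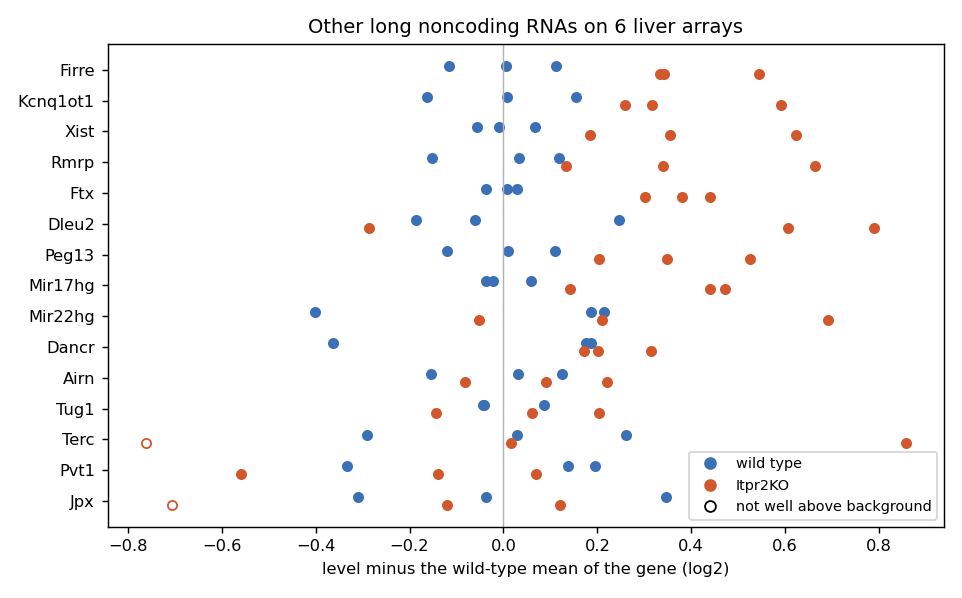
Level of 15 other long noncoding RNAs on each array, minus the WT mean of the gene (log2), with open circles where the probe was not well above background. All KO arrays lie above all WT arrays for 7 RNAs, Ftx and Firre among them, with the largest mean difference at 0.41.

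The long noncoding RNAs that RefSeq lists are given for comparison where they were measured, on 356 of their 1346 probes. They were not matched to the protein-coding probes for signal level. The median over all genes was 0.041 without the filter on dim probes, against 0.0044 with it. Of 356 measured probes of 328 long noncoding RNA genes, 201 had a higher and 155 a lower mean in KO, with a median of 0.064, against -0.0053 for 17362 protein-coding probes. KO lay above WT without overlap for 4.78% of the noncoding RNA probes and below for 4.21% (8.99% in all), against 6.23% and 6.02% of protein-coding probes. None of the 356 passed the adjusted threshold of limma, and 6.46% had an unadjusted p under 0.05, against 5.79% of protein-coding probes.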

How the data were processed

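Cy3-labelled cRNA made from 100 ng of total liver RNA was hybridised to 1-colour Agilent arrays, per the labels' protocols. The deposited scanner tables give intensity values from the Feature Extraction software, 11.5.1.1 by the file headers and 10.7.3.1 per the submitters' processing notes. The processed intensity is background-subtracted, with no scaling across arrays. A second table deposited by the authors holds log2 values of 20644 probes. It matched scanner values after 75th percentile scaling and median centring of every probe, with direction as in the scanner values. How its probes were chosen is unknown. Its column medians were 0.0021, -0.0094 and 0.0050 for WT 1 to 3 and -0.013, 0.011 and 0.0062 for KO 1 to 3. Its KO 2 column correlated best with the KO 3 scanner table and its KO 3 column with the KO 2 table, so arrays are named here by the scanner tables.

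Control spots and 818 outlier spots were left out, levels were taken as log2 of the processed signal minus the 75th percentile over non-control spots, and spots of a probe were averaged. Accessions gave 28330 of 39429 probes 1 RefSeq symbol (GRCm38.p6), 0 several and 11099 none. A probe was tested if well above background on all 3 arrays of a genotype, which left 22311, 6 of them among the 8 noncoding RNA probes. For gene lists the brightest probe stood for its gene. The genotypes were compared with limma 3.58.1 (R 4.3.3), two-sided, with Benjamini-Hochberg adjustment over all probes, and the procedure was tested on simulated data. The members, lists and tests were chosen with earlier results of these data known. Named genes are the members, the 3 smallest p-values and the 3 highest signals per list, the nearest measured coding neighbours and the 3 most alike genes per member, and a few genes that this rule names are not reported here. Firre, Xist, Jpx and the other list members named beside them, and Afp, Igf2, Dlk1, Acta1, Ckm and Mylpf, were named after their values were seen.

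Alternatives were normexp correction (offset 50) on median signals, quantile and median scaling, other filters, the authors' matrix, outlier spots kept, the mean of a gene's probes, the slide or replicate number as a block, values within slides and each array left out. Leaving out WT 1 and KO 3 together was added after seeing the data. Same-numbered WT and KO arrays had deviations from their genotype means that correlated at -0.20, 0.047 and -0.27. WT 1 and KO 3, the arrays with muscle transcripts, correlated at 0.30. Deviations from a mean of 3 arrays depend on each other, so these values cannot settle whether the numbers pair the arrays. Precision is limited by having 3 arrays per genotype.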

Additional observations from a re-analysis of the deposited data

How the results depend on the processing

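The brighter Lncpint probe had a log2 difference of 0.89 to 1.11 over 18 alternatives and the second probe one of 0.44 to 1.21, the highest with normexp correction and otherwise at most 0.72. With each array left out in turn they ran from 0.89 to 1.09 and from 0.44 to 0.72. Leaving out arrays could not change their sign, because all KO levels lay above all WT levels. The single probe past the adjusted threshold was lost, with 0 called, with normexp correction, with the filter on all 6 arrays, with the replicate block and without WT 1 and KO 3, and the count ran from 0 to 2 with 1 array left out. The share of probes whose genotypes did not overlap was 47.5% with normexp correction, 71.9% within slide 1, 62.0% within slide 2, 35.6% without WT 1 and KO 3 and 18.2% to 30.0% with 1 array left out, where fewer arrays make overlap rarer. Arrays centred on their median turned the genes without overlap from 888 higher and 789 lower to 362 higher and 861 lower. Normexp correction moved the median of all probes from 0.0042 to 0.19, Malat1 to 0.56, Neat1 to -0.73 and H19 to 0.96, and the cause was not tested. Neat1 was negative in 14 and positive in 4 of 18 alternatives, H19 negative in 13 and positive in 5, and Malat1 and Meg3 positive in all they entered. The Meg3 probe drops out when all 6 arrays must be above background. No list had a member past the threshold under any alternative tested. List medians kept their sign, though with 1 array left out not their size for PRC2 (0.025 to 0.12) and imprinted genes (0.066 to 0.37), in 18 of 18 alternatives for these and other long noncoding RNAs (0.24 to 0.38), in 17 for p53 targets, glucocorticoid receptor targets and snoRNA hosts, and not for paraspeckle proteins and splicing factors. The replicate block left the Lncpint difference at 0.99 and changed no list count. Differences within a slide rest on KO 1 or WT 3 as the single array of a genotype.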

Other observations

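Among the 356 measured probes of RefSeq long noncoding RNA genes, some that are not described above had large differences between genotypes; they were picked after their values were seen and are given with no test. Gm3734 had levels of -3.09, -4.36 and -3.21 in WT and of -0.82, -1.53 and -0.82 in KO, all KO arrays higher, with a log2 difference of 2.50 ± 0.38 (SE). 4930459C07Rik, also named above beside Meg3, had a difference of 1.24 ± 0.40 with no overlap. On the lower side 4930525G20Rik had levels of -1.35, -0.11 and -0.88 in WT and of -1.49, -1.98 and -2.75 in KO, a difference of -1.29 ± 0.42. Both probes of AW011738 were lower in KO without overlap, with differences of -1.19 ± 0.41 and -1.04 ± 0.29, although the first was not well above background on KO 1. In all, 12 of these probes differed by more than 1 in log2, 5 higher and 7 lower, or 3.37% of them against 1.94% of all probes.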
